A study of Mus musculus with 28 samples.

Results

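Cyclic nucleotide phosphodiesterases hydrolyse cAMP and cGMP, the second messengers that adenylyl and guanylyl cyclases make. Their isoforms differ in substrate, in control by calcium, cGMP or phosphorylation, and in where they sit in the neuron, so that the set of genes a cell transcribes shapes how long and how far a cyclic nucleotide signal reaches. Nascent transcription of 10 such genes, Pde1a, Pde1b, Pde1c, Pde2a, Pde4a, Pde4b, Pde4c, Pde4d, Pde7b and Pde10a, was followed through network silencing, network disinhibition and Rai1 shRNA. The 10 genes were taken by name from 22919 genes in the authors' tables, and 15 further phosphodiesterase genes were kept for comparison. Under bicuculline, transcription of Pde10a, Pde4b, Pde4d and Pde1c rose and that of Pde1b and Pde7b fell in both shRNA arms. Under tetrodotoxin Pde4b and Pde4d fell and Pde2a and Pde1b rose. No member passed the test for an effect of the Rai1 shRNA.

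The material was mouse forebrain culture from CD1 embryos at embryonic day 18 (cortex and hippocampus together, pooled over embryos), which held neurons, astrocytes and oligodendrocyte precursor cells. All cultures carried a lentiviral shRNA, added on day in vitro 14, either a control sequence (shCtrl) or one against Rai1 (shRai1), a chromatin-associated regulator of transcription. On day 17 each arm received, for 4 hours, water as vehicle, 1 µM tetrodotoxin (TTX), which blocks sodium channels and silences action potentials, or 20 µM bicuculline (BIC), which blocks GABA-A receptors and raises network firing. RNA made in the last 20 minutes was labelled with bromouridine, captured and sequenced (Bru-seq). The 16 libraries formed 6 groups: shCtrl vehicle (2 libraries), shCtrl TTX (3), shCtrl BIC (2), shRai1 vehicle (3), shRai1 TTX (3) and shRai1 BIC (3). In a mixed culture a lower nascent level can mean fewer cells that transcribe a gene or less transcription per cell, and these cannot be told apart here.

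The data were summaries, and the depth of single libraries is unknown. The authors' deposited table of each comparison gives, per gene, a log2 change with its standard error (SE) and an adjusted p from DESeq2, and a gene is called changed here at an adjusted p under 0.05. A separate table gives 1 pooled FPKM (fragments per kilobase and sequencing depth) with bounds for each shCtrl condition. The mean normalized count of the 10 members over the libraries ranged from 141 for Pde4c to 19763 for Pde10a, with a median of 2433, against a median of 107 over tested genes. All 8 neuron, 7 astrocyte and 5 oligodendrocyte precursor markers had FPKM above 0, with sums of 594, 231 and 129 in shCtrl vehicle, while 6 microglia and 6 endothelial and mural markers summed to 19.7 and 3.05. Rai1 itself passed the test in no condition in the libraries labelled shRai1: its log2 change against shCtrl, from the authors' deposited table, was 0.16 in vehicle (SE 0.073, adjusted p 0.3568), -0.12 in TTX (adjusted p 0.9998, SE 0.064) and 0.03 under BIC (adjusted p 0.9997, SE 0.073). An shRNA acts on the finished transcript, so nascent RNA is no check of the arm labels, and every direction between arms rests on those labels. The labels name replicates without saying whether they came from separate preparations, so the errors cover the spread between these libraries only.

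Upstream sequences are shown for 5 members, those with the largest root mean square log2 change over the 4 drug responses and the shRNA effect in vehicle, so that the letters next to a start can be set beside the direction of the response. Each is the 150 bases before the most upstream start that RefSeq's promoter set lists for the gene, on GRCm38.p6, read 5′ to 3′ on the gene's strand. Capitals mark matches to the letters searched, which were the cAMP response element (TGACGTCA) and its half-site (TGACG or CGTCA), the AP-1 site (TGANTCA), the GC box (GGGCGG or CCGCCC) and the Egr site (GCGNGGGCG or CGCCCNCGC), on both strands. A full response element also holds a half-site, and a GC box and an Egr site can overlap.
Pde4b: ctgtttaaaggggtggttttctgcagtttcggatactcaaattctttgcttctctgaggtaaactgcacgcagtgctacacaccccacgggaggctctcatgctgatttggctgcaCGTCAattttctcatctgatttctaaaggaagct
Pde4d: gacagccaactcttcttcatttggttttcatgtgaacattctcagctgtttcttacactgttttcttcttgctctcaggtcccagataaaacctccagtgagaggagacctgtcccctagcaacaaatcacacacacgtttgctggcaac
Pde10a: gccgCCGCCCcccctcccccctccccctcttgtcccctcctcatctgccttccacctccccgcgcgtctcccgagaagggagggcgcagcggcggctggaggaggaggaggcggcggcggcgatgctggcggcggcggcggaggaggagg
Pde1b: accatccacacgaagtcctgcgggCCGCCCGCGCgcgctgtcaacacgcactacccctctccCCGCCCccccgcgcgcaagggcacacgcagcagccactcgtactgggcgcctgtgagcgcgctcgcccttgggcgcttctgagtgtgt
Pde7b: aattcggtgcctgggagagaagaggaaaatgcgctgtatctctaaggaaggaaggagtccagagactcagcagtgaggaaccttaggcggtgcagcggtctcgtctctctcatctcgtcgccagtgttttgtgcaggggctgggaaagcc

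The stretches lie at chr4:102421405-102421554 on the plus strand (Pde4b), chr13:108654027-108654176 on the plus strand (Pde4d), chr17:8801595-8801744 on the plus strand (Pde10a), chr15:103502884-103503033 on the plus strand (Pde1b) and chr10:20548329-20548478 on the minus strand (Pde7b). The starts of Pde4d and Pde1b are the 5′ ends of RefSeq's gene intervals. Those of Pde4b, Pde10a and Pde7b lie 334, 277 and 177 kb inside the interval, so longer transcripts of these genes begin elsewhere and no assay here tells which start was used. The Pde4b stretch holds a half-site 34 bases before the start, and those of Pde10a and Pde1b are GC-rich (78% and 71.3% G or C, against 46% for Pde4b and 45.3% for Pde4d). Among all 27 RefSeq windows of the 10 members (250 bases before to 50 after each start), none held the full response element, which 1.79% of all 32851 windows hold. A half-site was found in 4 windows, of Pde1a, Pde2a, Pde4a and Pde4b, which is 14.8% of member windows against 20.8% of all. An Egr site was found in windows of Pde1b and Pde2a (7.41% against 5.55%), an AP-1 site in 1 window of Pde1c (3.7% against 7.81%), and a GC box in 6 windows of Pde1b, Pde2a, Pde4a and Pde10a (22.2% against 35.7%). These matches describe letters in a window and are no evidence of binding.

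Transcription of the 10 genes covered a wide range in the unstimulated control culture. By the authors' pooled FPKM in shCtrl vehicle the order was Pde2a (47.4, bounds of the file 36.6 to 58.1), Pde1b (28.2, 21.4 to 34.9), Pde4b (27.3, 20.9 to 33.7), Pde4d (25.3, 19.6 to 31.0), Pde10a (21.6, 16.7 to 26.5), Pde4c (19.2, 14.4 to 24.1), Pde4a (17.0, 12.9 to 21.2), Pde1a (12.1, 8.66 to 15.5), Pde7b (8.01, 5.69 to 10.3) and Pde1c (1.14, 0.51 to 1.78). Neighbours in this order had overlapping bounds except Pde2a above Pde1b and Pde7b above Pde1c. Pde2a, the cGMP-stimulated isoform that links the cAMP and cGMP pathways, therefore stood at the top and Pde1c, a calcium-calmodulin-stimulated isoform, at the bottom. The other per-length measure, mean normalized count per kilobase of the gene's interval over all libraries, also put Pde2a first (59.1) and Pde1c last (2.21) but moved Pde10a to the third place (43.0) and Pde4c to the ninth (5.20). FPKM per count per kilobase ranged from 0.503 for Pde10a to 3.7 for Pde4c, so the order between the second and the last gene depends in part on which measure is used.

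**Figure D1:**
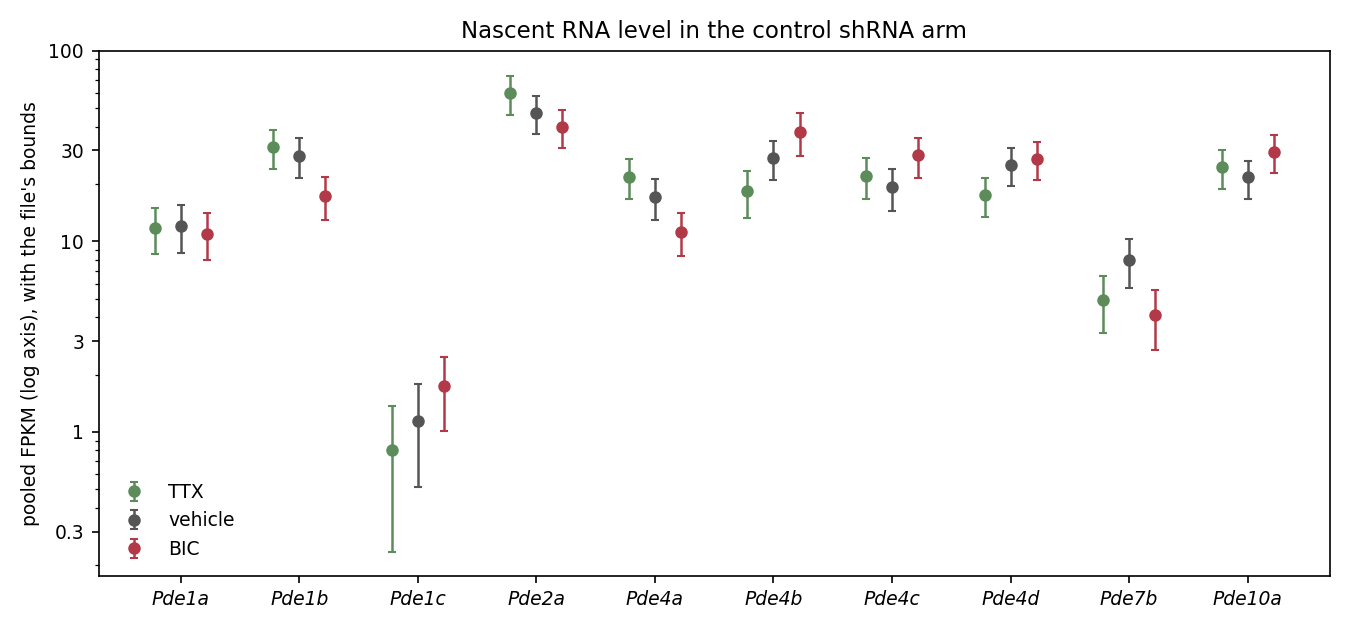
Pooled FPKM of each phosphodiesterase gene in the control arm on a log axis, with 1 point per condition (TTX, vehicle, BIC) and bars for the bounds given in the file, not for a spread between libraries. Pde2a is the highest gene in all 3 conditions and Pde1c the lowest, and the BIC and vehicle bars are apart for Pde7b only.

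The genes also differ in size. In the coordinates of the FPKM table (mm9, the build that the submitters' processing notes name), the long members were Pde4d (chr13:109444371-110746177, 1302 kb), Pde10a (chr17:8719666-9179513, 460 kb), Pde4b (chr4:101927347-102279867, 353 kb), Pde7b (chr10:20117810-20444874, 327 kb), Pde1c (chr6:56019798-56319628, 300 kb) and Pde1a (chr2:79674610-79969569, 295 kb). The short ones were Pde2a (chr7:108570205-108661343, 91.1 kb), Pde4a (chr9:20970158-21017692, 47.5 kb), Pde4c (chr8:73247963-73275075, 27.1 kb) and Pde1b (chr15:103333465-103360487, 27.0 kb). A nascent read can fall anywhere in these intervals, introns included. The intervals of Pde2a and Pde4d also hold microRNA genes (Mir139, and Mir1904 and Mir582), whose reads could be counted with either gene.

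Disinhibition with BIC changed 9 of the 10 genes in the control arm, 6 upward (Pde1a, Pde1c, Pde2a, Pde4b, Pde4d, Pde10a) and 3 downward (Pde1b, Pde4a, Pde7b). Of all genes tested in that comparison 34.4% were called, 17.4% higher and 17.0% lower, and of the well-sampled genes (mean count of 1000 or more, as in 8 members) 59.7%, with 37.8% higher and 21.9% lower. The median log2 change of the members was 0.45, against -0.04 over genes with a mean count of at least 50. In the shRai1 arm all 10 were called, 7 higher and 3 lower, where 42.5% of all genes tested were called (21.3% in each direction), and 70.3% of those with a count of at least 1000 (45.1% higher, 25.3% lower). The members' median there was 0.43, against -0.03. The well-sampled genes thus also had more rises than falls.

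Pde10a, a dual-substrate enzyme known for its abundance in striatal projection neurons, had the largest rise of the 10 genes by the deposited changes in both arms, though Pde3a, outside the 10, rose further. Its pooled FPKM was 21.6 in vehicle and 29.3 in BIC. In the authors' deposited table it rose by 1.15 on the log2 scale in shCtrl (2.22-fold, SE 0.14, 95% interval 0.87 to 1.42, adjusted p 5.749e-15) and by 1.30 in shRai1 (2.46-fold, SE 0.11, adjusted p 6.15e-30). The rise in pooled FPKM was smaller (log2 ratio 0.44 with 0.1 FPKM added) and below those of Pde1c (0.57), Pde4c (0.55) and Pde4b (0.46). With 1 FPKM added it was 0.42, below Pde4c (0.53) and Pde4b (0.45) but above Pde1c (0.36). The bounds of Pde10a in BIC and vehicle overlapped.

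The PDE4 enzymes are specific for cAMP and are the targets of rolipram. Pde4b and Pde4d rose together while Pde4a fell. Pde4b went from 27.3 to 37.5 FPKM, and the authors' deposited table gave log2 changes of 0.83 in shCtrl (SE 0.13, adjusted p 4.05e-10) and 0.92 in shRai1 (SE 0.10, adjusted p 4.299e-19). Pde4d had 25.3 FPKM in vehicle and 27.1 in BIC, with rises of 0.81 in shCtrl (SE 0.11, adjusted p 1.146e-11) and 0.81 in shRai1 (SE 0.088, adjusted p 1.187e-18) in the authors' deposited table. The Pde4d rise was thus barely present in FPKM, where the log2 ratio was 0.10. Pde4a fell in the authors' deposited table by 0.29 in shCtrl (SE 0.094, adjusted p 0.009229) and by 0.27 in shRai1 (SE 0.073, adjusted p 0.0007984), and its FPKM was 17.0 in vehicle and 11.2 in BIC. Pde4c, the least sampled member, stood at 0.36 in shCtrl (SE 0.18, adjusted p 0.1054) and rose by 0.40 in shRai1 (SE 0.14, adjusted p 0.01154) in the authors' deposited table.

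The PDE1 enzymes are stimulated by calcium and calmodulin, and their 3 genes split. Pde1b, the form with a strong striatal and hippocampal expression, was 28.2 FPKM in vehicle and 17.3 in BIC. In the authors' deposited table it fell by 0.99 in shCtrl (1.99-fold lower, SE 0.15, adjusted p 2.038e-09) and by 0.71 in shRai1 (1.64-fold lower, SE 0.12, adjusted p 6.272e-08). Pde1c did the reverse, with 1.14 FPKM in vehicle and 1.75 in BIC, and rose by 0.68 in shCtrl (SE 0.12, adjusted p 1.73e-07) and 0.78 in shRai1 (SE 0.097, adjusted p 9.236e-15) in the authors' deposited table. Pde1a rose by 0.38 in shCtrl (SE 0.12, adjusted p 0.006499) and 0.45 in shRai1 (SE 0.097, adjusted p 1.636e-05) in the authors' deposited table. The Pde1a rise is uncertain, because its pooled FPKM was below vehicle (12.07) in BIC (10.99).

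Pde7b, a cAMP-specific enzyme with high affinity, had the most marked fall beside Pde1b. Its FPKM was 8.01 in vehicle (bounds 5.69 to 10.3) and 4.12 in BIC (2.71 to 5.53), which do not overlap. The authors' deposited table gave falls of 0.96 in shCtrl (1.94-fold lower, SE 0.15, adjusted p 6.562e-09) and 1.10 in shRai1 (2.15-fold lower, SE 0.12, adjusted p 1.156e-17). Pde2a rose in the authors' deposited table, by 0.51 in shCtrl (SE 0.091, adjusted p 2.03e-07) and 0.38 in shRai1 (SE 0.071, adjusted p 6.493e-07). That rise is uncertain too, since pooled FPKM of Pde2a was 47.4 in vehicle and 39.8 in BIC.

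**Figure D2:**
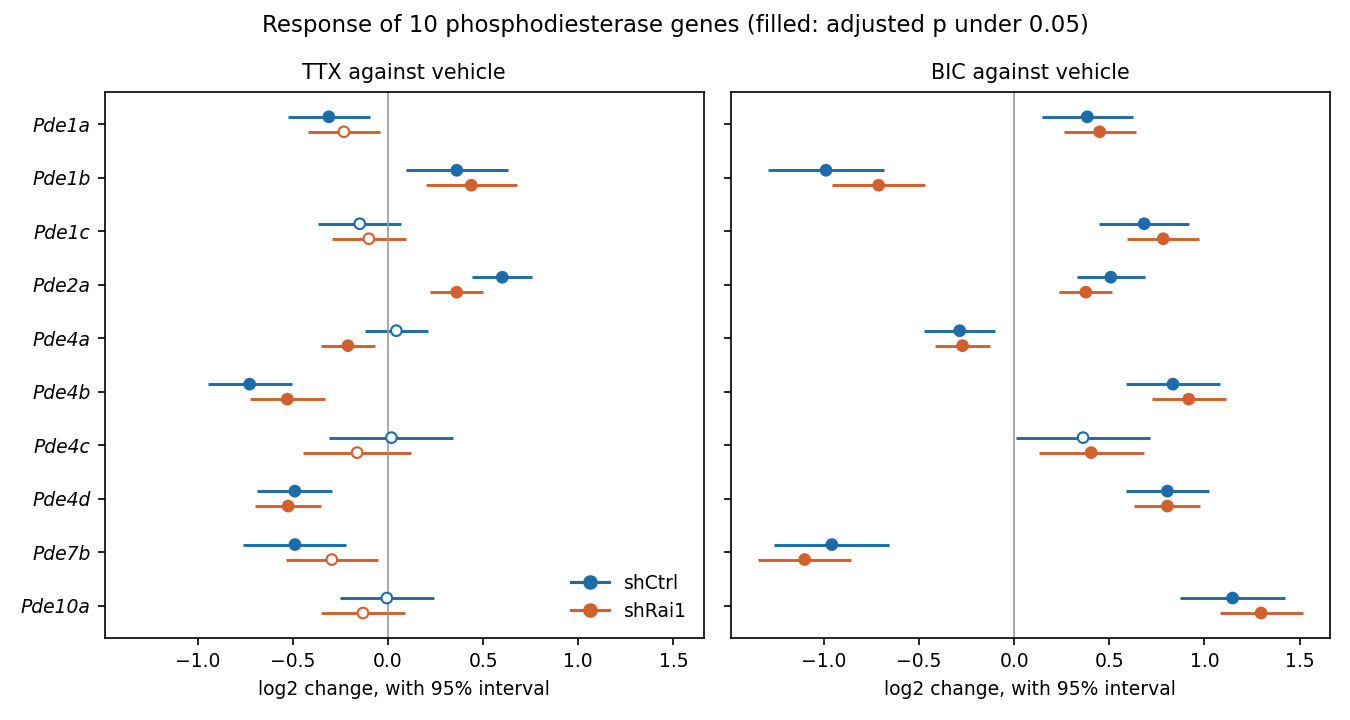
Log2 change of each phosphodiesterase gene against vehicle (x axis) under TTX (left) and BIC (right), in the control arm (blue) and the Rai1 shRNA arm (orange). Points are the values of the authors' deposited tables, bars their 95% intervals, and filled points have an adjusted p under 0.05: under BIC 9 control-arm and 10 shRai1-arm points are filled, under TTX 6 and 5.

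Silencing with TTX changed 6 of the 10 genes in the control arm, with Pde2a and Pde1b higher and Pde1a, Pde4b, Pde4d and Pde7b lower. In that comparison 26.7% of all genes tested were called, 11.8% higher and 14.9% lower, and 44.1% of those with a mean count of at least 1000 (13.8% higher, 30.3% lower). In the shRai1 arm 5 were called, Pde1b and Pde2a higher and Pde4a, Pde4b and Pde4d lower, where 30.5% of all genes tested were called, 13.7% higher and 16.8% lower, and 47.2% of those with a count of at least 1000 (12.1% higher, 35.1% lower). The members' median log2 changes were -0.08 and -0.19, against -0.01 in both arms over genes with a count of at least 50. The share of members called was closer to the background of well-sampled genes than under BIC.

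Pde4b had the largest fall by the deposited changes in both arms, though in pooled FPKM the lowest ratio was that of Pde7b (log2 ratio -0.69 against -0.58). Its pooled FPKM was 27.3 in vehicle and 18.3 in TTX, and in the authors' deposited table it fell by 0.73 in shCtrl (1.66-fold lower, SE 0.11, adjusted p 2.796e-09) and by 0.53 in shRai1 (SE 0.10, adjusted p 1.552e-06). Pde4d had 25.3 FPKM in vehicle and 17.4 in TTX, with falls of 0.49 in shCtrl (SE 0.10, adjusted p 1.274e-05) and 0.52 in shRai1 (SE 0.089, adjusted p 5.052e-08) in the authors' deposited table. Both long PDE4 genes were called lower under TTX and higher under BIC in both arms. The share of all genes with this pattern was not computed, and Adcy8, outside the members, was called so too. In the authors' deposited table Pde1a missed this pattern only by its TTX value in shRai1 (adjusted p 0.0546). That value passed when only genes with a count of at least 50 were adjusted (adjusted p 0.04614, DESeq2 p-values). The pooled FPKM of Pde1a in shCtrl did not show the pattern, with log2 ratios of -0.04 under TTX and -0.13 under BIC. The remaining PDE4 genes did not pass in shCtrl: the authors' deposited table gave 0.04 for Pde4a (SE 0.084, adjusted p 0.7666) and 0.02 for Pde4c (SE 0.17, adjusted p 0.9593). Their pooled FPKM was higher in TTX than in vehicle, 21.9 against 17.0 for Pde4a and 22.1 against 19.2 for Pde4c, with overlapping bounds. In shRai1 Pde4a fell by 0.21 (SE 0.073, adjusted p 0.01621) and Pde4c stood at -0.16 (SE 0.14, adjusted p 0.4407) in the authors' deposited table.

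Pde2a had 47.4 FPKM in vehicle and 59.8 in TTX, and the authors' deposited table puts its rise, the largest of the members in shCtrl but not in shRai1, at 0.60 in shCtrl (1.52-fold, SE 0.081, adjusted p 3.162e-12) and 0.36 in shRai1 (SE 0.071, adjusted p 4.044e-06). Pde1b had 28.2 FPKM in vehicle and 31.2 in TTX and rose in the authors' deposited table by 0.36 in shCtrl (SE 0.14, adjusted p 0.03356) and by 0.44 in shRai1 (SE 0.12, adjusted p 0.001946). Pde1b was thus called in opposite directions under the 2 drugs in both arms, higher under TTX and lower under BIC. The share of all genes called in this way was not computed. Pde1a fell by 0.31 in shCtrl in the authors' deposited table (SE 0.11, adjusted p 0.02107), and in shRai1 its value was -0.23 (SE 0.097, adjusted p 0.0546). In pooled FPKM Pde1a had nearly equal values, 12.07 in vehicle and 11.77 in TTX (log2 ratio -0.04). Its paralogue Pde1c stood at -0.15 in shCtrl (SE 0.11, adjusted p 0.364) and -0.10 in shRai1 (SE 0.10, adjusted p 0.4978) in the authors' deposited table.

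Pde7b was lower under both drugs in shCtrl. Its FPKM was 8.01 in vehicle and 4.93 in TTX, and the authors' deposited table gave a fall of 0.49 under TTX in shCtrl (SE 0.14, adjusted p 0.002624) and -0.30 in shRai1 (SE 0.12, adjusted p 0.05277). Pde10a, the member with the largest BIC response, stood at -0.01 under TTX in shCtrl (SE 0.13, 95% interval -0.25 to 0.24, adjusted p 0.9841) and -0.13 in shRai1 (SE 0.11, adjusted p 0.4139) in the authors' deposited table. Its pooled FPKM had the other sign, with 21.6 in vehicle and 24.5 in TTX (log2 ratio 0.18) and overlapping bounds. The TTX and BIC comparisons of an arm share its vehicle libraries, so a gene's changes under the 2 drugs are not independent.

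**Figure D3:**
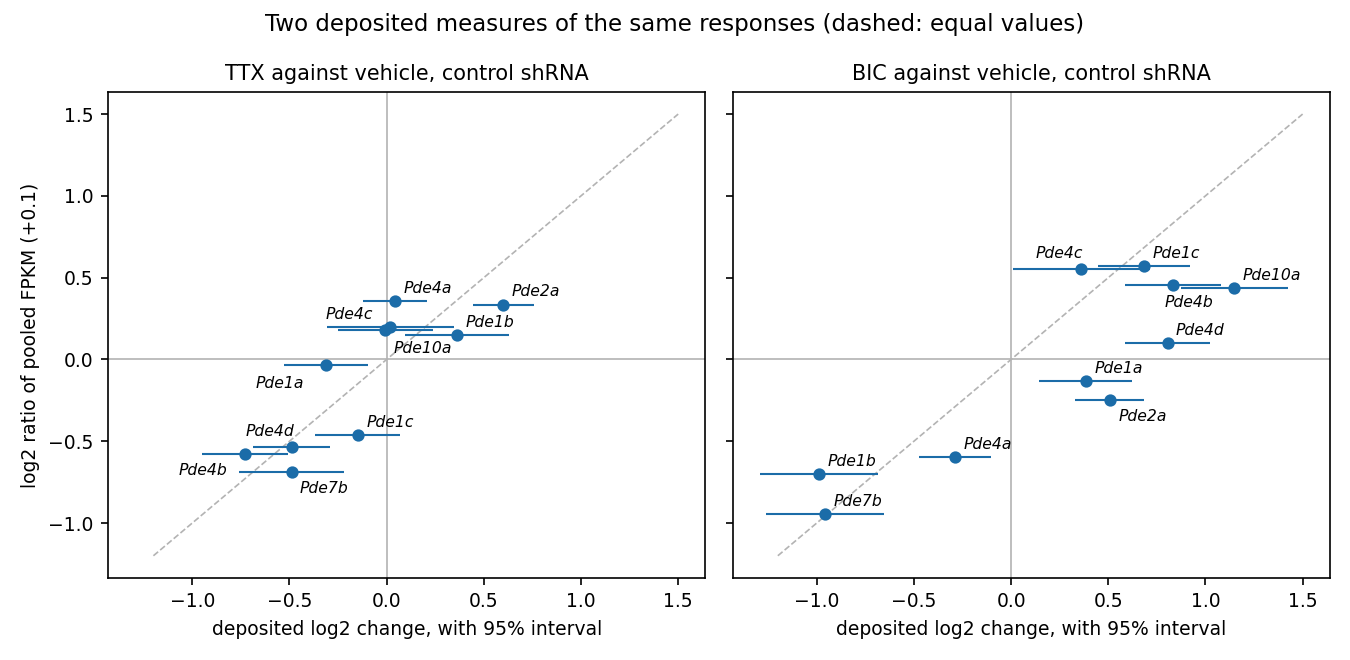
Log2 ratio of pooled FPKM to vehicle after adding 0.1 FPKM (y axis) against the log2 change of the authors' deposited table with its 95% interval (x axis), for the 10 genes in the control arm under TTX (left) and BIC (right). Points off the dashed line differ between the measures. Under BIC Pde1a and Pde2a lie below 0 in FPKM and above 0 in the deposited change.

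The pooled FPKM followed the direction of all 6 called TTX changes and of 7 of 9 called BIC changes in the control arm, Pde1a and Pde2a being the exceptions. Over all called genes with a count of at least 50, the direction was shared by 91.6% under TTX and 90.6% under BIC. The bounds of the FPKM table overlapped those of vehicle for all 10 members in TTX and for 9 in BIC. Most responses therefore rest on the replicated counts of the comparison tables and were not separable from vehicle by the bounds of the FPKM table. How often these bounds overlap over all genes was not computed, so the overlap cannot be read as particular to the members.

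The direction of the responses is also given by gene length, because the shares called differed between long and short genes overall. In BIC-treated shCtrl cultures 5 of the 6 members of at least 200 kb were called higher and 1 (Pde7b) lower, and of the 4 shorter members 1 (Pde2a) was called higher and 2 (Pde1b, Pde4a) lower. Among all genes with a count of at least 50, 36.8% of 1000 long genes were called higher and 25% lower, against 20.1% and 21.8% of 11311 shorter ones. Under TTX in shCtrl 4 of the 6 long members were called lower and none higher, where 24.7% and 15.7% of all long genes were, and 2 of the 4 shorter members were called higher and none lower, against 13.7% and 17.6% of all shorter genes with a count of at least 50. In shRai1 2 of the 6 long members were called lower under TTX (33.3%), against 27.8% of all long genes. Pde1a and Pde7b, both long, passed when only genes with a count of at least 50 were adjusted (adjusted p 0.04614 and 0.04454, DESeq2 p-values). Of the 4 shorter members 2 were called higher and 1 lower there, against 15.6% and 20% of all shorter genes. Under BIC in shRai1 5 of the 6 long members were called higher and 1 lower, against 43.2% and 27.9% of all long genes. The 4 shorter ones had 2 called higher and 2 lower, against 25.4% and 28.9%. With a count this small the split is a description of these members.

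The cell type markers moved with the treatments as well. For comparison, 26.7% of all genes tested were called under TTX and 34.4% under BIC in shCtrl, and 30.5% and 42.5% in shRai1. Under TTX in shCtrl 4 of 5 oligodendrocyte precursor markers (median -0.70) and 4 of 7 astrocyte markers (median -0.21) were called lower, as were 4 of 8 neuron markers (Gad1, Gad2, Snap25 and Tubb3), with Rbfox3 called higher, but in shRai1 4 of the 5 precursor markers were called higher (median 0.47). Summed FPKM in shCtrl vehicle, TTX and BIC was 129, 92 and 108 for precursor markers, 231, 188 and 199 for astrocyte markers and 594, 524 and 590 for neuron markers, with no marker at 0. Under BIC in shCtrl 4 of 8 neuron markers (Gad1, Gad2, Map2 and Snap25) were called higher and 3 lower. Of 6 microglia markers Csf1r and Cx3cr1 were called higher there, and in shRai1 Cx3cr1 alone. The summed FPKM of microglia markers was 19.7 in vehicle, of which Cx3cr1 held 14.7, and 28.5 in BIC. Aif1, P2ry12, Tmem119 and C1qa had mean counts of at most 3.45 and no adjusted p under BIC in shCtrl, so they could not be called. Pde4b and Pde4d fell under TTX in both arms. The precursor markers took opposite directions in the 2 arms. Of 8 neuron markers, 3 (Gad1, Gad2 and Snap25) were called lower and 0 higher under TTX in shRai1, so these 3 fell in both arms. Of 7 astrocyte markers, 1 was called higher and 1 lower there. Of 12 measured markers of striatal projection neurons, the cells in which Pde10a, Pde1b and Pde7b are best known, 7 were called lower and 1 higher under BIC in shCtrl (median -0.84), and their summed FPKM was 299 in vehicle and 205 in BIC. In shRai1 7 were called lower and 3 higher under BIC (median -0.86). Under BIC in both arms Pde1b and Pde7b thus moved with the majority of that list and Pde10a against it. Under TTX 6 of the 12 were called higher and 3 lower in each arm (medians 0.25 and 0.13). There Pde1b rose in both arms, Pde7b fell in shCtrl, opposite to most of the called markers, and did not pass in shRai1, and Pde10a passed in neither. The cultures were of cortex and hippocampus, and whether they held striatal projection neurons was not tested. The part of cell composition in the members' responses was not tested either.

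The responses were compared between the arms directly, since a call in one arm alone shows no difference. The BIC response in shRai1 minus that in shCtrl ranged over the members from -0.14 (Pde7b, SE 0.20) to 0.28 (Pde1b, SE 0.20). The 95% interval for Pde1b was -0.11 to 0.67. By the Wald test with Benjamini-Hochberg adjustment 0 of 10 members passed, where 0.0219% of all 18241 genes were called. At an unadjusted p under 0.05 there were 0 members and 552 of the 18241 genes. For Pde4d the difference was 0.0002 (95% interval -0.28 to 0.28). For TTX 0 of 10 members passed, where 0.943% of all 18241 genes were called. An unadjusted p under 0.05 was reached by 2 members and by 1651 of the 18241 genes. Those 2 were Pde4a, whose TTX response was lower in shRai1 by 0.25 (SE 0.11, 95% interval -0.47 to -0.04, adjusted p 0.3953), and Pde2a, whose rise was smaller in shRai1 (difference -0.24, SE 0.11, 95% interval -0.45 to -0.03, adjusted p 0.4248). Intervals of this width leave room for differences between the arms, up to 0.67 for Pde1b under BIC.

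**Figure D4:**
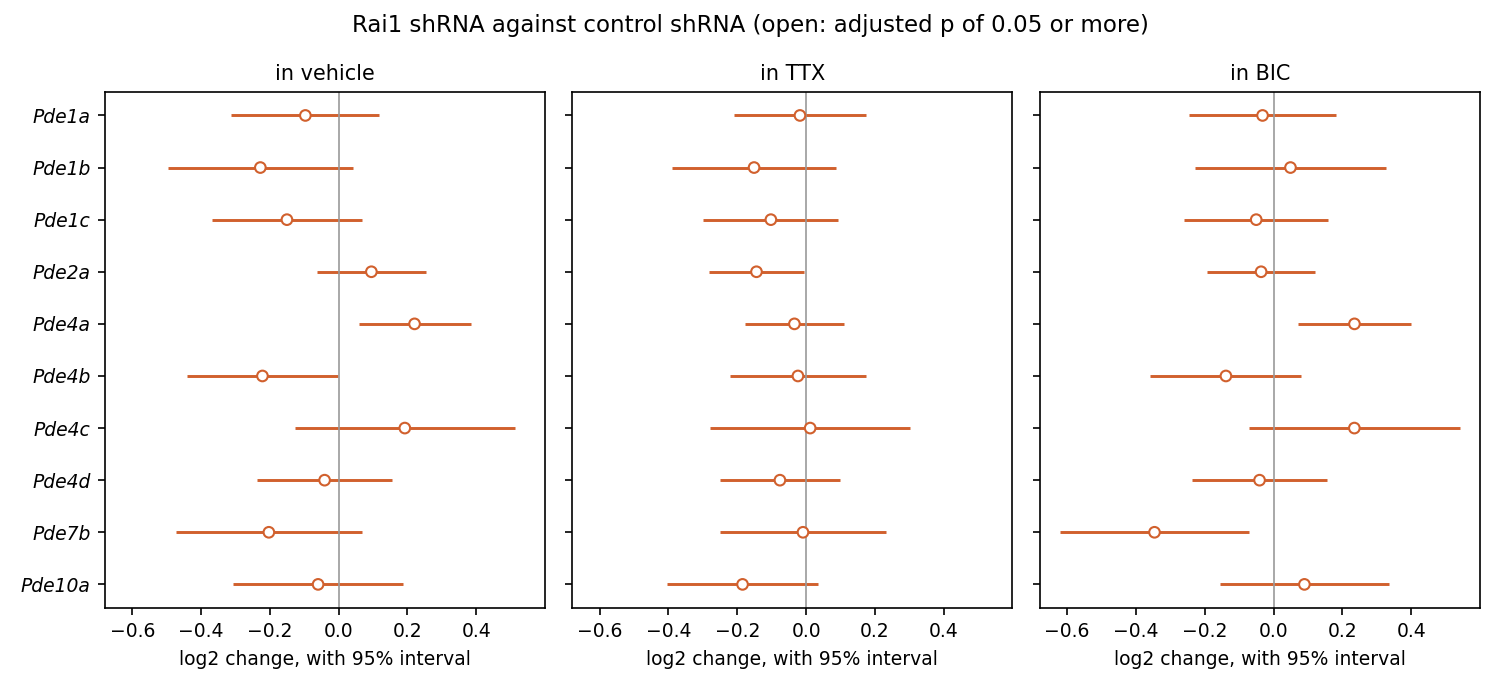
Log2 change of each phosphodiesterase gene in the Rai1 shRNA arm against the control arm (x axis), in vehicle, TTX and BIC, from the authors' deposited tables with 95% intervals. All 30 points are open, with an adjusted p of 0.05 or more, and lie between -0.35 and 0.24.

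The Rai1 shRNA left all 10 genes without a call in each condition. In vehicle, where 0.857% of all genes tested were called by DESeq2, the members ranged in the authors' deposited table from -0.23 (Pde1b, SE 0.14) to 0.22 (Pde4a, SE 0.083), and 2 of them had an unadjusted p under 0.05, as did 1642 genes in all. These were Pde4a (p 0.007903, adjusted p 0.2259) and Pde4b (log2 change -0.22, SE 0.11, p 0.04906, adjusted p 0.446) in the authors' deposited table. In TTX, with 0.0283% of all genes called, the range was -0.18 (Pde10a) to 0.01 (Pde4c). Pde2a alone among the members had an unadjusted p under 0.05 there (-0.14, SE 0.071, p 0.04112, adjusted p 0.9998) in the authors' deposited table. Of the 21192 genes tested 700 did. In BIC, with 0.00944% called, Pde4a stood at 0.24 (SE 0.084, p 0.005301) and Pde7b at -0.35 (SE 0.14, p 0.01369). Both had an adjusted p of 0.9997 in the authors' deposited table. There 621 of the 21192 genes tested had an unadjusted p under 0.05. Oligodendrocyte precursor markers moved between the arms in vehicle, where 4 of 5 were called lower (median -0.78), while 0 of 7 astrocyte markers and 1 of 8 neuron markers were called. Of the 5 precursor markers Pdgfra alone was called in the other conditions, higher in TTX (list median 0.50) and lower in BIC (list median -0.49).

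The rest of the family and of the pathway moved as follows. Of 15 other phosphodiesterase genes, 6 were called higher and 1 lower under BIC in shCtrl, and 6 and 2 in shRai1, with medians of 0.34 and 0.28. Over all genes tested the shares were 17.4% higher and 17.0% lower in shCtrl, and 21.3% in each direction in shRai1. Pde3a, a cGMP-inhibited cAMP phosphodiesterase, rose by 1.59 in both arms in the authors' deposited table (SE 0.12, adjusted p 1.19e-36 in shCtrl, and SE 0.097, adjusted p 2.947e-58 in shRai1), although its pooled FPKM was 2.93 in vehicle and 3.42 in BIC. Pde7a, the paralogue of Pde7b, took the direction opposite to it and rose in the authors' deposited table by 0.86 in shCtrl (SE 0.098, adjusted p 4.64e-17) and 0.98 in shRai1 (SE 0.077, adjusted p 4.21e-35). Pde3b (0.50), Pde8b (0.34) and Pde9a (0.50), the last a cGMP-specific enzyme, also rose in shCtrl in the authors' deposited table, while Pde5a (-0.35, adjusted p 0.05486) and Pde8a (0.35, adjusted p 0.1681) did not pass there. In shRai1 both passed in the authors' deposited table, Pde5a lower (-0.51, adjusted p 9.861e-05) and Pde8a higher (0.44, adjusted p 0.01437). The shCtrl FPKM of Pde5a was 13.8 in vehicle and 16.7 in BIC, opposite in direction to its deposited value in that arm. No FPKM served for shRai1, so the fall of Pde5a there could not be set beside one and stays uncertain. The FPKM of Pde8b and Pde9a was not higher in BIC (5.49 and 6.75) than in vehicle (5.72 and 7.70), so these rises are uncertain. Under TTX 2 of the 15 were called higher and 3 lower in shCtrl, among them Pde9a (0.39, adjusted p 0.0008596), Pde8b (-0.31, adjusted p 0.02005) and Pde7a (-0.23, adjusted p 0.03958) in the authors' deposited table. In shRai1 2 were called higher and 1 lower. Pde9a (0.17, adjusted p 0.1483), Pde8b (-0.17, adjusted p 0.1626) and Pde7a (-0.18, adjusted p 0.07226) did not pass there in the authors' deposited table. Over all genes tested 26.7% were called under TTX in shCtrl and 30.5% in shRai1. The Pde9a rise under TTX is uncertain too, since its FPKM was 6.84 in TTX and 7.70 in vehicle.

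The enzymes that make cyclic nucleotides included genes called in opposite directions. Of 16 such genes, 2 were called higher and 6 lower under BIC, and 1 higher and 2 lower under TTX, with the same counts in both arms. The shares called over all genes tested were 34.4% under BIC and 26.7% under TTX in shCtrl, and 42.5% and 30.5% in shRai1. Under TTX the list thus had no more calls than genes in general. Adcy8, a calcium-stimulated adenylyl cyclase, fell by 1.37 under TTX (SE 0.12, adjusted p 5.022e-27) and rose by 1.17 under BIC (SE 0.13, adjusted p 9.523e-17) in shCtrl in the authors' deposited table, with 8.48 FPKM in vehicle, 3.00 in TTX and 18.7 in BIC. Adcy1, the other calcium-stimulated cyclase of forebrain neurons, fell under both drugs in the authors' deposited table, by 0.78 (SE 0.090, adjusted p 3.369e-16) and 0.93 (SE 0.10, adjusted p 1.49e-18). Adcy5, the main cyclase of striatal neurons, stood in the authors' deposited table at 0.43 under TTX (adjusted p 0.06911) and fell by 1.68 under BIC, with an SE of 0.20 and an adjusted p of 4.48e-15. Pde10a and Adcy5, both known from striatal neurons, therefore went in opposite directions under BIC.

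The 13 effector genes (protein kinase A and G subunits, kinase inhibitors and the Epac exchange factors) had 0 called higher and 6 lower under TTX in shCtrl, and 7 higher and 3 lower under BIC. In shRai1 the counts were 0 and 9 under TTX and 8 and 3 under BIC. Of all genes tested, 11.8% were called higher and 14.9% lower under TTX in shCtrl, and 17.4% and 17.0% under BIC. In shRai1 these shares were 13.7% and 16.8% under TTX and 21.3% in each direction under BIC. Among genes with a mean count of at least 1000 more were called. In shCtrl 13.8% were called higher and 30.3% lower under TTX, and 37.8% and 21.9% under BIC. In shRai1 these shares were 12.1% and 35.1% under TTX, and 45.1% and 25.3% under BIC. Prkaca, a catalytic subunit of protein kinase A, fell under BIC by 0.39 (SE 0.11, adjusted p 0.001637) and Prkar2b, a regulatory subunit, by 0.25 (SE 0.096, adjusted p 0.03257) in shCtrl in the authors' deposited table. Rapgef4, which encodes Epac2, rose by 0.38 (SE 0.087, adjusted p 9.143e-05) there in the authors' deposited table. No gene of the other phosphodiesterases, the synthesis list or the effector list was called for the Rai1 shRNA in any condition.

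For the members with the largest responses over 5 comparisons (4 drug responses and the shRNA effect in vehicle), the genes of nearest pattern were sought among 12333 genes by Euclidean distance between their log2 changes. Pde10a (root mean square log2 change 0.78) lay nearest to Zdhhc14, a palmitoyltransferase (distance 0.09), Fgfr2, a fibroblast growth factor receptor (0.10), and Hipk1, a protein kinase (0.16). Each of these stood between 1.16 and 1.26 under BIC in both arms and between -0.15 and 0.01 under TTX. Pde7b (root mean square 0.71) lay nearest to Mettl24 (0.16), Adk, the adenosine kinase (0.26), and Ogfrl1 (0.30), whose BIC values ran from -1.08 to -0.87. These distances describe the shared pattern over comparisons that share libraries.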

How the data were processed

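Bru-seq libraries from 16 cultures were analysed as the authors' summaries, and ChIP-seq of 12 other samples was left out. Reads were aligned with TopHat2 2.1.0 and Bowtie2 2.2.6 to mm9 and compared with DESeq2, per the submitters' processing notes. The read counter and annotation are not given in the sources used here. Per the file headers, each of the 7 deposited comparison tables holds a mean normalized count (a signal averaged over the libraries), a log2 change with its standard error, a Wald score and a p-value, raw and adjusted, as the authors computed them. The deposited FPKM are 1 pooled value with bounds per condition. Only shCtrl columns served as levels, because the names of the other columns did not follow the knockdown comparisons.

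The knockdown table for vehicle has no gene column. Its rows were named here by unique mean counts (20107 named, 1085 left unnamed with a mean of at most 0.306), and all 10 members were named. For differences between arms, the deposited log2 changes were subtracted and compared with a two-sided Wald test, the standard error being the root of the summed squared errors, and Benjamini-Hochberg adjustment over the 18241 genes whose mean FPKM was 0.1 or more. The Wald test was also run on simulated normal responses drawn with the deposited standard errors. Such a run checks the computation only, since it takes those errors and the independence of the arms as given. Intervals of 95% assume normal errors. File starts were read as 0-based, since 7835 lengths then equalled RefSeq's, against 512 otherwise. Python 3.11.15, pandas 2.3.3, numpy 2.4.6, scipy 1.17.1 and matplotlib 3.10.9 were used.

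The members, gene lists and tests were chosen with earlier results of these data known. Named genes were all 10 members, Rai1, 7 other phosphodiesterases, 6 cyclic nucleotide genes and, for the 2 members with the largest root mean square change, the 3 nearest genes. Single markers and kinase anchors are named as members of their lists' counts, after their calls were seen. No p was computed for a list. Alternatives were other thresholds, filters, centring, FPKM ratios and another source of the standard error.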

Additional observations from a re-analysis of the deposited data

How the results depend on the processing

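No paired analysis was possible because the files hold no values per library, and for the same reason leaving out single replicates was not run. As pooled FPKM ratios, Pde1a under BIC in shCtrl reversed to -0.13 with 0.1 FPKM added and -0.12 with 1 FPKM added, and Pde2a to -0.25 and -0.24; the cause was not tested. Of the 20 member values in shCtrl, 15 others moved by more than their SE with 0.1 FPKM added and 13 with 1 FPKM added. Centring on the median of genes with a count of at least 50 moved values near 0 across it, Pde10a under TTX in shCtrl to 0.0030 and Pde7b between arms in TTX to 0.0010. At a threshold of 0.01 Pde1a and Pde1b under TTX in shCtrl, Pde4a under TTX in shRai1 and Pde4c under BIC in shRai1 lost their call. Pde1a and Pde7b under TTX in shRai1 gained one at 0.1, or when only genes with a count of at least 50 were adjusted (adjusted p 0.04614 and 0.04454, DESeq2 p-values). Counts over all genes moved with the threshold: the shRNA effect from 122 genes to 35 at 0.01 and 204 at 0.1 in vehicle, from 6 to 2 at 0.01 in TTX, and from 2 to 1 at 0.01 and 5 at 0.1 in BIC, where the filter on counts also gave 5. The arm difference of TTX responses moved from 172 genes to 62 and 272, and that of BIC responses from 4 to 0 at 0.01. The other 81 counts, members' counts included, stayed within 1.5 times. With 2 libraries in shCtrl vehicle and shCtrl BIC, the control-arm values rest on few replicates, and the weight of 1 library could not be examined.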

Other observations

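Anchoring proteins hold protein kinase A, and often PDE4 enzymes, at particular sites of the cell, and 11 genes of this kind were measured. Under TTX in shCtrl 0 were called higher and 3 lower (Akap1, Akap5, Akap13), with a median of -0.12. Under BIC 2 were called higher (Akap6, Akap13) and 4 lower (Akap1, Akap5, Akap7, Akap10), with a median of -0.11. In shRai1 the counts were 0 and 2 under TTX and 3 and 6 under BIC. Over all genes tested 26.7% were called under TTX and 34.4% under BIC in shCtrl, and 30.5% and 42.5% in shRai1. Among genes with a mean count of at least 1000 the shares were 44.1% and 59.7% in shCtrl, and 47.2% and 70.3% in shRai1. The TTX count of anchors in shCtrl was close to the share of all genes tested and is nothing particular to them. Akap5, the anchor of neuronal postsynaptic sites, and Akap1, the anchor of the outer mitochondrial membrane, were called lower under both drugs in both arms. These comparisons share the vehicle libraries of each arm, and the share of all genes called so was not computed. None of the 11 was called for the Rai1 shRNA in any condition.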
